A study of Mus musculus with 14 samples.

Results

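Chemokines are small secreted proteins that guide migrating cells by binding receptors with 7 membrane-spanning helices. H3K4me3, histone H3 trimethylated at lysine 4, was mapped around 10 chemokine genes, Cxcl1, Cxcl2, Cxcl3, Cxcl5, Pf4, Ppbp, Cxcl12, Ccl2, Ccl7 and Ccl5, out of 21938 annotated protein-coding genes. The 10 genes were given as a list that included Ppbp, for whose RNA the study lists primers for quantitative PCR. A peak was assigned to a gene if it reached to within 1 kb of any of the gene's transcription start sites (TSSs), and putative enhancers were collected within 100 kb of the loci. An H3K4me3 peak was present at 4 of the 10 genes (Cxcl5, Cxcl12, Ccl2 and Ccl7), compared with 59.1% of all protein-coding genes. This background does not allow for CpG islands, described below, and of the 10 genes only Cxcl12 had one at its TSS. No peak was assigned to Cxcl1, Cxcl2, Cxcl3, Pf4, Ppbp or Ccl5. The share of 4 in 10 had a Wilson 95% confidence interval from 16.8 to 68.7%, which covers counting error only. The 10 genes were a given list and not a random sample. Neighbouring genes also share their surroundings, so the genes are not independent.

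The cells were iMEF, immortalised mouse embryo fibroblasts with floxed Ash2l alleles and Cre-ER. In all groups, untreated cells included, exon 4 of the endogenous Ash2l had been deleted, and a lentiviral construct supplied an FKBP-ASH2L fusion protein on which the cells depended. Per the study the cells were a selected clone, NG3. The compound dTAG causes rapid degradation of the fusion protein, and ASH2L is needed by the KMT2 enzymes to methylate H3K4 efficiently. The 14 libraries comprised 2 H3K4me3 replicates of untreated cells, 2 replicates at each of 30 min, 2 h, 4 h, 8 h and 16 h of dTAG, and 2 inputs, of which 1 came from the untreated group and 1 from the 16 h group. The data held here are 2 lists of positions, 25431 peaks found across all libraries and 32965 putative enhancers of control cells. The enhancer count is that of the list, and the study's text states a slightly lower count. Neither list gives a value per library, so no spread between replicates can be given and no time point can be compared with another. The methods name a planned minimum of raw reads per ChIP library, but the depth that each library reached is not given. A listed peak may have been found in untreated cells, treated cells or both, and a missing peak says that none was called in any of them.

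H3K4me3 marks the promoters of active genes and of many genes that are ready to be transcribed, and it is most abundant at promoters rich in CpG dinucleotides. CXC chemokines with an ELR motif, among them Cxcl1, Cxcl2, Cxcl3, Cxcl5 and Ppbp, attract neutrophils through the receptor CXCR2. Fibroblasts can produce several of them, together with CCL2 and CCL7, within hours of an inflammatory signal through the transcription factors NF-kB and AP-1. Cxcl12 differs in that stromal cells express it steadily.

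The promoters of Cxcl1, Cxcl2 and Cxcl3, related genes of the same chromosome 5 cluster, shared a sequence that the selection of the genes did not use. They are shown for that reason. Of the 10 genes, 6 were matched by symbol in the RefSeq promoter table for build GRCm38.p6, namely Cxcl1, Cxcl2, Cxcl3, Pf4, Ppbp and Cxcl12. Cxcl5, Ccl2, Ccl7 and Ccl5 had no entry. Cxcl12 was thus the only marked gene searched, so whether the sequence goes with the lack of a peak was not tested. The 150 bases that end just before the first annotated TSS are printed in the direction of transcription, and capitals mark matches to the NF-kB motif and to TATAAA:
Cxcl1, chr5:90891091-90891240, plus strand: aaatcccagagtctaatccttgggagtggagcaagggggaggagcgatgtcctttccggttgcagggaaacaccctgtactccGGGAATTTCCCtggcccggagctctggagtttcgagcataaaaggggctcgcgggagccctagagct
Cxcl2, chr5:90903721-90903870, plus strand: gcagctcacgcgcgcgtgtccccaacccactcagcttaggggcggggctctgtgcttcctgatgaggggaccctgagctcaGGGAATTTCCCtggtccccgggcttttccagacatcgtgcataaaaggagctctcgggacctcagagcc
Cxcl3, chr5:90785951-90786100, plus strand: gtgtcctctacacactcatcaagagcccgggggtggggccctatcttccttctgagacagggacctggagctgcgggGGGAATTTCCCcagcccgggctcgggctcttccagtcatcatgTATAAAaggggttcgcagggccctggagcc

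All 3 promoters held the same 11 bases, GGGAATTTCCC, which match the NF-kB motif on both strands. Counted back from the RefSeq start, they lay 71 to 61 bases before it in Cxcl1, 97 to 87 in Cxcl2 and 73 to 63 in Cxcl3. Between the end of the printed stretch and the RefSeq start lie 28 bases in Cxcl2 and 4 in Cxcl1. Seen from the printed ends, the Cxcl2 site is therefore nearer than 97 to 87. These 11 bases, searched on both strands in windows from 250 bases before to 50 bases after the start, were found in 14 of 32851 RefSeq promoters (0.0426%). The 14 include these 3 promoters, from which the 11 bases were taken, so the count is a description and no test. Any match to the NF-kB motif, searched on both strands, was present in 4.51% of promoters, and in none of Pf4, Ppbp and Cxcl12. The letters TATAAA on the coding strand stood 30 to 25 bases before the start in Cxcl3 and in Ppbp, and 1.99% of promoters held them in the same strand 20 to 40 bases before the start. The AP-1 motif TGACTCA, searched on both strands, matched none of the 6 promoters and 5.20% of all promoters. These matches are of letters and do not show that a factor was bound.

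The promoters of Cxcl12, which was marked, and Ppbp, which was not, differed in CpG content and are shown with each CpG in capitals:
Cxcl12, chr6:117168385-117168534, plus strand: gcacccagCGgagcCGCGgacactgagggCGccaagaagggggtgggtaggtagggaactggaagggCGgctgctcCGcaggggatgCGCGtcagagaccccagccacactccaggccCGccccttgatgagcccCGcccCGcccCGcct
Ppbp, chr5:90768368-90768517, plus strand: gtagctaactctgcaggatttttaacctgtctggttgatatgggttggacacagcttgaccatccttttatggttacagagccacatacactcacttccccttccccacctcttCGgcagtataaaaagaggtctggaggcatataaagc

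The printed stretch held 12 CpG dinucleotides in Cxcl12 and 1 in Ppbp. Over the 250 bases before the start the counts were 14 in Cxcl12, 10 in Cxcl1, 9 in Cxcl2, 7 in Cxcl3, 2 in Ppbp and 1 in Pf4.

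Among the ELR chemokines on chromosome 5, H3K4me3 was called at Cxcl5 alone. Its peak (chr5:90758804-90760142, GRCm38.p6) was 1339 bp wide and reached from 556 bp before to 782 bp after the TSS. Of its bases, 51.6% were exonic, 6.87% were intronic and 41.5% lay outside annotated genes. The width was close to the median of the widest peak per gene, which was 1255 bp over the 12966 genes with a peak, with quartiles of 908 and 1710 bp. The peak at Cxcl12, the ligand of CXCR4, was the widest of the 10 genes at 1638 bp (chr6:117168287-117169924). It reached from 248 bp before to 1389 bp after the TSS, 73.8% of it was intronic, and it overlapped a CpG island. A further peak of 393 bp in Cxcl12 (chr6:117170019-117170411) began 1.442 kb after the last TSS of the gene and was therefore not assigned to it.

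The peaks at the CC chemokine genes Ccl2 and Ccl7, whose products attract monocytes through CCR2, were narrow and lay entirely downstream of the TSS. The Ccl2 peak (chr11:82035616-82035827) was 212 bp wide and covered positions 45 to 256 after the TSS, in exonic (57.5%) and intronic (42.5%) sequence. Only 72 of the 12966 genes with a peak (0.555%) had a widest peak of at most this width. Over all listed peaks the smallest width was 200 bp, which was also the most frequent, and the median was 683 bp. The Ccl2 peak was thus near the smallest size in the list. Ccl7 had a first peak of 257 bp (chr11:82045745-82046001), from 33 to 289 bp after the TSS, and a second of 464 bp (chr11:82046550-82047013), from 838 to 1301 bp after it. The second Ccl7 peak was the member peak nearest to the 1 kb limit on the inside. A widest peak of at most 464 bp was found in 640 genes (4.94%). In all, 15.9% of genes with a peak had all of their assigned peaks downstream of the first TSS. Among the 1618 genes with a peak and no CpG island at the TSS, the median widest peak was 876.5 bp, 44 were as narrow as Ccl2 or narrower (2.72%), 17.8% were as narrow as Ccl7 or narrower, and 22.1% were as wide as Cxcl5 or wider. None of the 5 assigned peaks overlapped a putative enhancer.

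**Figure D1:**
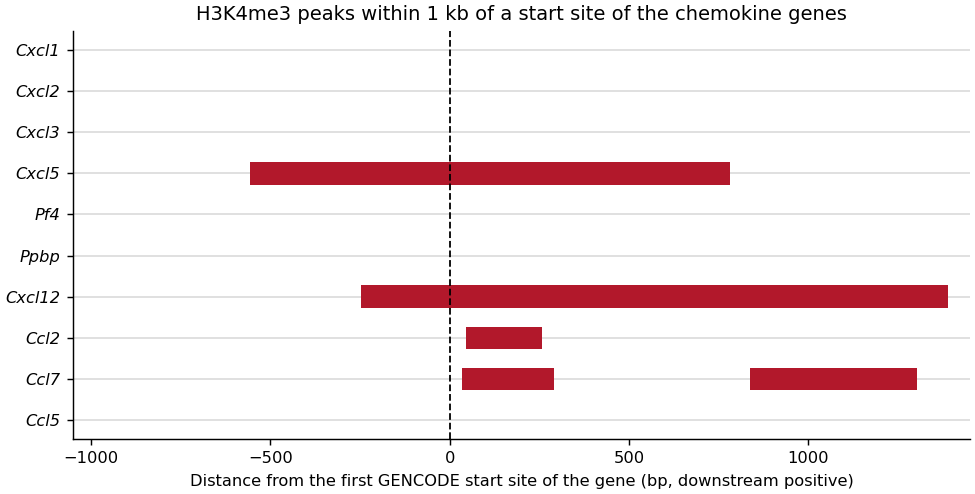
H3K4me3 peaks assigned to the 10 chemokine genes, drawn as bars by distance in bp from the first TSS (dashed line), with transcription to the right. The peaks of Cxcl5 and Cxcl12 cross the TSS, those of Ccl2 and Ccl7 begin 45 and 33 bp after it, and 6 genes have no peak in the window.

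The 6 unmarked genes differed in how far the nearest H3K4me3 peak was. For Ppbp, which encodes a platelet chemokine precursor, the TSS lay 8.376 kb from the nearest peak, and this was the peak at the Cxcl5 promoter. The same peak was the nearest for Pf4, which encodes platelet factor 4, at 12.293 kb, and for Cxcl3, at 25.961 kb. For Cxcl2 and Cxcl1 the nearest peak was that of Mthfd2l, a mitochondrial folate enzyme gene, at 26.872 and 39.502 kb. For Ccl5, whose product attracts T cells and monocytes, it was a peak at Taf15, an RNA-binding protein gene, at 56.063 kb. Ppbp was thus the unmarked gene closest to the 1 kb limit.

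The stretch between the Cxcl5 and Mthfd2l peaks contained no H3K4me3 peak over 170.6 kb and included Ppbp, Pf4, Cxcl3, Cxcl1 and Cxcl2. It contained 17 putative enhancers. Of 25336 stretches between neighbouring peaks in the genome, 204 held at least 17 enhancers (0.805%), and 4 of these, itself included, were no longer than 170.6 kb. The median stretch was 24.674 kb long and held 0 enhancers. The stretch around Ccl5 was 205.144 kb long and held 8 enhancers. At least as many were held by 4.01% of stretches, and 242 of these, itself included, were no longer than 205.144 kb.

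Putative enhancers, which are regions with H3K4me1, H3K27ac and accessible chromatin away from TSSs, were abundant around the chromosome 5 genes. Within 100 kb of a TSS there were 21 for Cxcl3, 20 for Cxcl5, 19 each for Pf4 and Ppbp, and 12 each for Cxcl1 and Cxcl2. The counts were lower for Ccl5 (8), Ccl7 (6), Ccl2 (5) and Cxcl12 (3). Over all protein-coding genes the median was 2, with quartiles of 0 and 5, and 73.8% of genes had at least 1 enhancer in this window, as had all 10 chemokine genes. As many enhancers as at Cxcl3 were found at 0.424% of all genes, as many as at Cxcl5 at 0.511%, as many as at Ppbp and Pf4 at 0.634%, and as many as at Cxcl1 and Cxcl2 at 3.60%. The shares were 12.2% for Ccl5, 22.1% for Ccl7, 29.1% for Ccl2 and 48.5% for Cxcl12. These counts are not independent, since the windows of neighbouring genes overlap and contain the same enhancers.

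Genes without a peak had fewer enhancers within 100 kb (median 1, quartiles 0 and 3, n = 8972) than genes with a peak (median 3, quartiles 1 and 6). Among genes without a peak, 13 had at least 19 enhancers, and these included Cxcl3, Pf4, Ppbp and their neighbour Cxcl15, an epithelial chemokine gene of the same cluster. The highest count among unmarked genes was 23. The 6 unmarked chemokine genes had a median of 15.5 enhancers and the 4 marked ones a median of 5.5. The ranges of 8 to 21 and 3 to 20 overlapped. All the unmarked genes but Ccl5 lie in the chromosome 5 cluster, where windows overlap and the marked Cxcl5 had 20. Locus and mark therefore cannot be told apart in these medians.

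**Figure D2:**
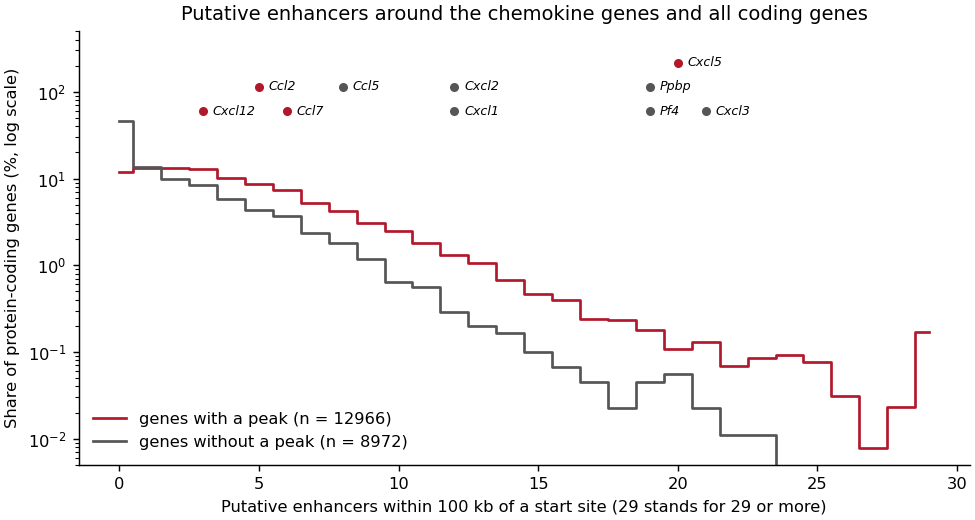
Number of putative enhancers within 100 kb of a TSS (horizontal axis) against the share of protein-coding genes on a log scale, for genes with (red line) and without (grey line) an H3K4me3 peak. Points mark the chemokine genes in the same colours at an arbitrary height, and Pf4, Ppbp, Cxcl5 and Cxcl3 lie at 19 to 21, where few genes are found.

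The 6 chromosome 5 genes spanned 146.579 kb (chr5:90759360-90905938), with Cxcl5, Ppbp, Pf4 and Cxcl3 at the left end and Cxcl1 and Cxcl2 at the right end. The span and 100 kb on each side contained 27 enhancers, 16 of them inside the span, or 77.9 per Mb compared with 12.1 per Mb over the genome. It contained 2 H3K4me3 peaks, or 5.77 per Mb compared with 9.30 per Mb. Of the 8 protein-coding genes with a TSS there, Cxcl5 and Mthfd2l were marked. The enhancer just inside the window lay 97.002 kb from the span and the next one outside lay 102.93 kb from it. When enhancers up to 12.5 kb apart were joined, Cxcl5 lay in a run of 5 enhancers over 14.325 kb, and 730 of 19350 runs in the genome (3.77%) had at least 5. Cxcl2 lay in a run of 4 and Cxcl3 in a run of 3.

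Close to the TSS, enhancers were listed for all 10 genes. The edge of the nearest enhancer was 3.143 kb upstream of Cxcl2, 3.809 kb upstream of Ppbp, 4.054 kb downstream of Cxcl3, 4.394 kb downstream of Cxcl5, 6.101 kb upstream of Cxcl1 and 6.561 kb downstream of Pf4. Within 10 kb there were 5 enhancers for Cxcl1, 5 for Cxcl5, 4 for Cxcl2, 4 for Pf4, 3 for Cxcl3 and 2 for Ppbp. There were 2 each for Cxcl12, Ccl2 and Ccl7, and 1 for Ccl5. Neighbouring genes shared some of these enhancers. In this window 18.4% of all genes had any enhancer, and 1.09% had 3 or more. Regions within 1 kb of a TSS had been left out of the enhancer list by its authors, so a shorter distance could not be observed for the TSSs they used.

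The enhancers between Pf4 and Cxcl3 and an enhancer 9.324 kb before Cxcl1 (measured from its centre) are shown from the 17 enhancers in the stretch without H3K4me3. Of these 17, only the enhancer before Cxcl1 contained the AP-1 motif. Capitals mark the match to the AP-1 motif:
chr5:90778996-90779152, plus strand: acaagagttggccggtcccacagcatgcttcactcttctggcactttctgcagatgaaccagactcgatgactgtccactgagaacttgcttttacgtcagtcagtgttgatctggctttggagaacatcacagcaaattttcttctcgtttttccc
chr5:90780023-90780148, plus strand: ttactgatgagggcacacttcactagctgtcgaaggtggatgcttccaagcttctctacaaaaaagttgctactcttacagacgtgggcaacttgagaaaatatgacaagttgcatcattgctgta
chr5:90881822-90882013, plus strand: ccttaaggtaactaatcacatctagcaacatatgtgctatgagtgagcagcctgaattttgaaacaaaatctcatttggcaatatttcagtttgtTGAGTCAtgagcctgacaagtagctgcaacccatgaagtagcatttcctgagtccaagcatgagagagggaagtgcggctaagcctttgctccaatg

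All 3 were outside annotated genes. The first was centred 6.639 kb after the Pf4 TSS and the second 6.018 kb before the Cxcl3 TSS. Only the third contained the AP-1 motif, on the opposite strand, and none of the 3 contained the NF-kB motif. Over the 49 enhancers in the windows of all the loci, 6 contained the AP-1 motif (12.2%) compared with 24.2% of all enhancers, and 5 contained the NF-kB motif (10.2%) compared with 6.97%. Of the 27 on chromosome 5, 4 contained the AP-1 motif (14.8%) and 0 the NF-kB motif. The median width of these 27 was 335 bp, and 405 bp over all enhancers. Within 200 bp around each centre, where widths are alike, the AP-1 motif was found in 10.2% of the 49, in 11.1% of the 27 and in 11.4% of all enhancers, so the difference in AP-1 was not seen there. The NF-kB motif was found in 4.08% of the 49, in 0 of the 27 and in 2.74% of all enhancers in the same 200 bp.

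The chromosome 11 genes fell into separate loci. Ccl2 and Ccl7 lay at the start of a CC chemokine cluster that runs to Ccl1 (chr11:82035571-82179812), where 9 enhancers were listed within 100 kb (26.1 per Mb), 5 of them inside. Ccl11, Ccl12, Ccl8 and Ccl1, the other chemokine genes of the cluster, had no peak. The 2 nearest enhancers were between the marked genes, 2.774 kb downstream of the Ccl2 TSS and 1.932 kb upstream of the Ccl7 TSS. The first of them, chr11:82038345-82039208, contained both the AP-1 and the NF-kB motif. It overlapped the gene Gm17268 and was centred 214 bp from an annotated TSS. By the annotation used here it thus lies within the 1 kb around TSSs that the enhancer list leaves out. A peak of 200 bp upstream of Ccl2 (chr11:82006931-82007130) overlapped an enhancer there and no TSS. Around Ccl5 8 enhancers were listed (39.1 per Mb), the nearest 4.426 kb upstream, and of the 5 peaks in the window none was at a chemokine gene. The enhancer just inside the Ccl5 window was 93.511 kb away and the next outside 100.336 kb away.

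Cxcl12 was the only protein-coding gene in its window on chromosome 6. Of its 5 enhancers (23.5 per Mb), 2 lay inside the gene in exonic sequence, the nearest 5.567 kb after the TSS, and the other 3 were centred beyond the 3′ end at 99.86 to 104.193 kb from the TSS.

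**Figure D3:**
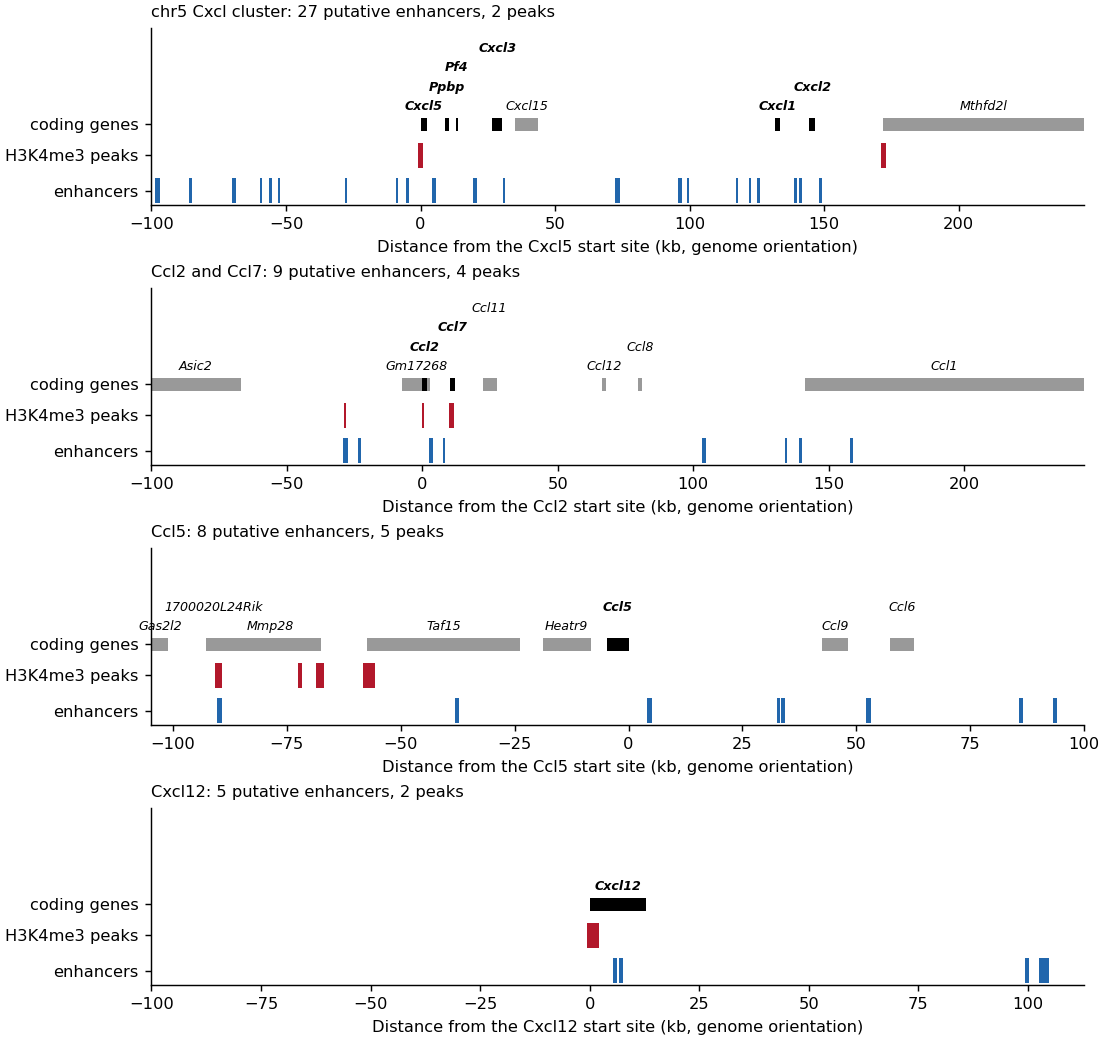
Protein-coding genes (chemokine genes of the list in black, others in grey), H3K4me3 peaks (red) and putative enhancers (blue) in the windows around the 4 loci, by distance in kb from a chemokine TSS. Peaks and enhancers are drawn slightly wider than they are, and the chromosome 5 window shows 27 enhancers but peaks only at Cxcl5 and Mthfd2l.

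A CpG island within 250 bp of a TSS was present at Cxcl12 and at none of the other 9 genes, compared with 57.2% of all protein-coding genes. Of genes with a peak 87.5% had an island, and of genes without a peak 13.4% had one. Of 12554 genes with an island 11348 had a peak. A peak without an island was found at 1618 genes, Cxcl5, Ccl2 and Ccl7 among them. The ratio of observed to expected CpG dinucleotides within 500 bp of the TSS was 0.782 for Cxcl12. It was between 0.3 and 0.5 for Cxcl1 (0.454), Pf4 (0.403), Cxcl5 (0.377), Cxcl2 (0.366) and Cxcl3 (0.305), and lower for Ccl5 (0.168), Ccl2 (0.132), Ppbp (0.125) and Ccl7 (0.085). The median was 0.727 over genes with a peak and 0.197 over genes without. The marked genes therefore spanned the whole range of the 10, from Ccl7 at the bottom to Cxcl12 at the top, and the unmarked Cxcl1 had a higher ratio than the marked Cxcl5.

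**Figure D4:**
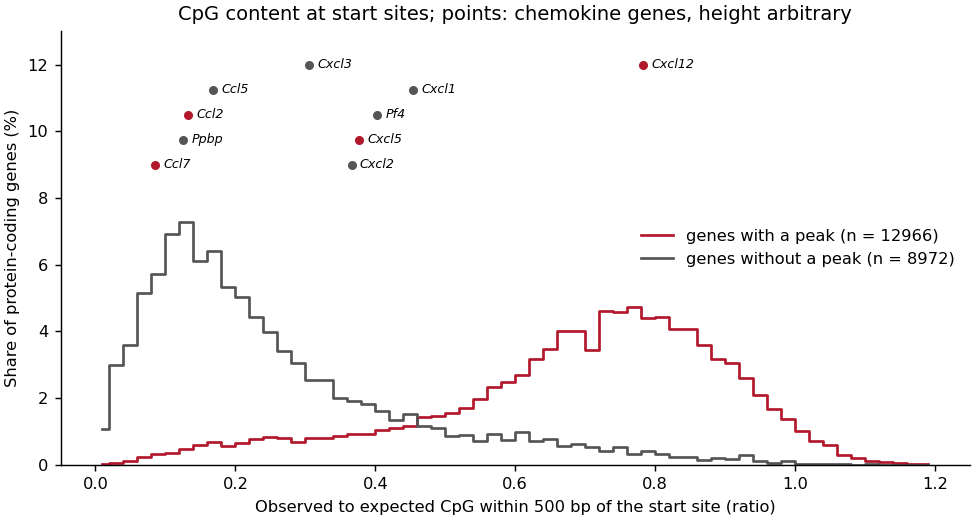
Ratio of observed to expected CpG dinucleotides within 500 bp of the TSS (horizontal axis) against the share of protein-coding genes with (red line) and without (grey line) an H3K4me3 peak. Points mark the chemokine genes in the same colours at an arbitrary height, and Cxcl12 alone lies near the median of marked genes, 0.727.

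The uniqueness of the sequence around the TSSs was also measured. Of the read starts within 1 kb of a TSS, 4.30% at Cxcl2, 4.31% at Cxcl3 and 0.977% at Cxcl5 would give a read of 75 bases that also matched elsewhere in the genome exactly. The share was 0 at Cxcl1, Pf4, Ppbp, Cxcl12, Ccl2, Ccl7 and Ccl5. With reads of 50 bases the share was 7.11% at Cxcl2, 7.89% at Cxcl3, 8.12% at Cxcl5, 1.99% at Ccl5 and 0.154% at Cxcl1, and 0 at the other 5 genes. Whether such reads bear on the peaks called was not tested.

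Genes of the surrounding signalling pathway were compared by the same rule. Of 27 other chemokine ligand genes 4 were marked, Cxcl16, Ccl25, Ccl27a and Cx3cl1, with widest peaks of 1013, 1332, 417 and 1339 bp, and all 4 had a CpG island at the TSS. Of 22 chemokine receptor genes 3 were marked. These were Cxcr4 (1094 bp), the receptor of CXCL12, Ackr3 (622 bp), which binds CXCL12 without signalling through G proteins, and Ccr10 (358 bp). Cxcr2, the receptor of the ELR chemokines, and Ccr2, the receptor of CCL2 and CCL7, had no peak. All 26 genes of the NF-kB pathway were marked, from the Toll-like and interleukin receptors through the kinases to the NF-kB subunits, with a median widest peak of 1319 bp. The widest was at Tab2 with 2496 bp and the narrowest at Tlr4 with 430 bp, and 24 of the 26 genes had an island. Of 15 inflammatory cytokine genes 5 were marked, Csf1 (3555 bp), Lif, Tslp, Il7 and Il11, and Il6, Il1b and Tnf were among the 10 that were not. The background of 59.1% applies to each of these counts and does not allow for CpG islands. Over all genes, 11348 of 12554 with an island had a peak. An island was present at 5 of the 27 other ligand genes, 1 of the 22 receptor genes and 3 of the 15 cytokine genes. Whether the lists differ beyond their islands was not tested.

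Marker genes of cell types were counted by the same rule, beside the background of 59.1%, which does not allow for CpG islands. All 10 fibroblast markers were marked, with a median widest peak of 2559 bp and the widest at Prrx1 (3018 bp). None of 7 leukocyte markers was marked, including Ptprc. Of 8 platelet and megakaryocyte markers, which concern Pf4 and Ppbp, 3 had a peak, Itga2b, Gp1ba and Itgb3, and Gp9, Gp6, Gp1bb and Gata1 were among those without. Of 4 endothelial markers Tek and Kdr were marked, and of 4 epithelial markers Epcam and Cdh1. A CpG island was present at 5 of the 10 fibroblast, 0 of the 7 leukocyte and 3 of the 8 platelet and megakaryocyte markers. It was present at 1 of the 4 endothelial and 3 of the 4 epithelial markers. Whether the marker lists differ beyond their islands was not tested, so the counts are no check of cell identity.

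**Figure D5:**
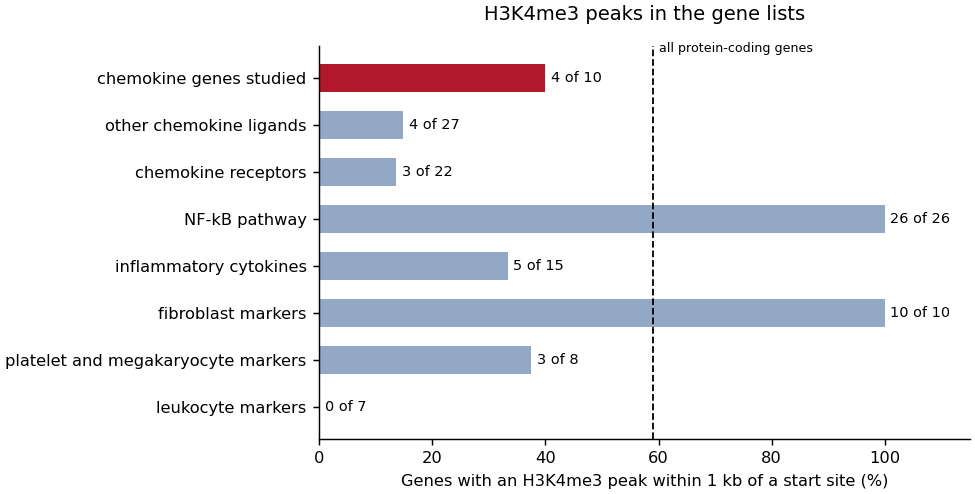
Percent of genes with an H3K4me3 peak within 1 kb of a TSS in the gene lists other than the endothelial and epithelial markers. Counts stand beside the bars, and the share of all protein-coding genes, 59.1%, is a dashed line. The 10 chemokine genes (4 of 10) and the other chemokine ligands (4 of 27) lie below the line, and the NF-kB pathway (26 of 26) and the fibroblast markers (10 of 10) reach the full length.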

How the data were processed

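The labels describe 12 H3K4me3 ChIP-seq libraries, in 6 groups of 2, and 2 inputs. Per the methods, the authors trimmed reads with Trim Galore, aligned them with BWA to mm10 (GRCm38.p6), filtered them with samtools, merged replicates with Picard and called narrow peaks with MACS. The deposited peak list joins all samples. The deposited enhancer list was made from H3K4me1, H3K27ac and ATAC-seq of control samples, without regions at TSSs. Tool versions are not given in the sources used here. Both lists hold only positions, so the planned edgeR test over time was not run and no p-value is given. Columns that belong to 1 sample numbered 0.

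Peak starts were taken to count from 0 and enhancer starts from 1, as read from the widths. Coordinates in the text count from 1. TSSs were those of GENCODE release M21 and genes its protein-coding genes on the autosomes, X and Y. The authors used a later release as their reference, and this can move single TSSs. CpG islands were called from the repeat-masked sequence, scoring 17 for each CpG and -1 for other bases, and kept at over 200 bp, over 50% GC and a ratio over 0.6. They are not a published island track. Motifs were TGACTCA for AP-1, the letters TATAAA and the NF-kB motif, each searched on both strands. Python 3.11.15, NumPy 2.4.6, pandas 2.3.3, SciPy 1.17.1, Matplotlib 3.10.9 and Numba 0.67.0 served for all steps. The interval functions were tested on simulated data, with 0 of 2000 queries wrong and 200 of 200 planted genes recovered among 2000. The members and gene lists were chosen with earlier results of these data known. Genes were named by rule: the 10 members, list genes beside them, the widest of a list, up to 5 exceptions in a list, and the gene at the nearest peak. Il6, Il1b, Tnf, Cxcr2, Ccr2, Ptprc, Tlr4 and the platelet markers without a peak were named after their values were seen.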

Additional observations from a re-analysis of the deposited data

How the results depend on the processing

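Of 74 values recomputed under other settings, 66 moved by at most 1.5 times. The same 4 genes were marked under 6 of 7 choices of TSS set, window and peak rule. With peaks of at least 500 bp only Cxcl5 and Cxcl12 were left (2 genes, median widest peak 1488.5 bp), compared with 55.6% of all protein-coding genes under the same setting, since the Ccl2 and Ccl7 peaks are narrower than this. With 1 TSS per gene, 2 inflammatory cytokine genes were marked. Within 50 kb, 4 enhancers were counted near Ccl5 and 2 near Cxcl12, and within 200 kb 12 near Cxcl12. In the 200 bp around each enhancer's centre, 2 of the 49 enhancers held the NF-kB motif (4.08%, compared with 2.74% of all enhancers). With reads of 50 bases, 2.46% of starts near the members' TSSs had another exact match, compared with 0.933% with 75 bases. No paired analysis was possible because the files give positions without a value per sample, and for the same reason no replicate could be left out. The depth that each library reached is not given, beyond the minimum planned in the methods. A promoter without a peak may therefore carry H3K4me3 below the level at which a peak was called.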

Other observations

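Non-coding genes lay among the enhancers of the chromosome 5 cluster. An enhancer of 254 bp upstream of Cxcl5 (chr5:90750385-90750638) was centred 14 bp from an annotated TSS of Gm43090, and an enhancer of 468 bp between Cxcl3 and Cxcl1 (chr5:90832055-90832522) was centred 40 bp from a TSS of Gm43086. Both lie within the 1 kb around TSSs that the enhancer list leaves out, by the annotation used here, and neither overlapped an H3K4me3 peak.

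Besides Cxcl1, Cxcl2 and Cxcl3, 11 RefSeq promoters held the 11 bases GGGAATTTCCC on either strand, among them those of the cytokine gene Il16 and of Hpn and Kremen2. Among the 13 genes without a peak and with at least 19 enhancers within 100 kb, Slc44a3 had the most, at 23, followed by Lrrc10 at 22. These genes were named after their values were seen.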
